A study of Homo sapiens with 4 samples.

Results

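The miR-15/16 family was followed through small RNA libraries of 4 human colorectal cancer cell lines. The 7 members described here are hsa-miR-15a-5p, hsa-miR-15b-5p, hsa-miR-16-5p, hsa-miR-195-5p, hsa-miR-424-5p, hsa-miR-497-5p and hsa-miR-503-5p. They were chosen by name, with earlier results of these data known, as the seed family of miR-16-5p together with its near relative miR-503-5p. They make up 7 of the 1474 mature miRNAs with a count in any library. HCT116 and RKO are established lines of colorectal carcinoma cells, here the parental lines. HCT116-R and RKO-R are their acquired radioresistant derivatives, grown out of the parental lines by repeated fractionated irradiation and then kept for a time without irradiation. One library was sequenced from each line, so no value has a replicate check, and whether a radioresistant line is a single clone was not given in the sources used here. The comparisons address which miRNAs differ between a radioresistant line and its parent. They compare libraries, since 1 library stands for each line.

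The 4 libraries held between 6818497 and 7140460 counts on miRNAs, and each listed between 992 and 1198 miRNAs. A miRNA that a library does not list was taken as 0, and for folds against a 0 the floor was set at 3 counts, a level of 0.420 to 0.440 CPM (counts per 1000000 counts of the library). The intervals printed below are 95% intervals for counting error only. Of the epithelial miR-200 family, miR-200a-3p, miR-200b-3p and miR-429 had between 4325 and 108375 counts in every library. miR-200c-3p had 291469 counts in HCT116 against 286432 in HCT116-R, and 649 in RKO against 1426 in RKO-R, and miR-141-3p from the same cluster had 6630, 8320, 17 and 41. The 4 blood cell miRNAs looked up (miR-142-3p, miR-142-5p, miR-223-3p and miR-451a) had at most 85 counts each. In RNA from bulk cultures, fewer cells that make a miRNA and less of it per cell cannot be told apart.

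A mature miRNA guides Argonaute to messenger RNAs that pair with its seed, the bases 2 to 8 from its 5′ end, and members of a seed family therefore share many predicted targets. The miR-15/16 family is known for holding cells in G1 by repressing D-type and E-type cyclins and their kinases, and for repressing the survival gene BCL2. Its founding cluster, miR-15a and miR-16-1 within the noncoding gene DLEU2, was found through its deletion in chronic lymphocytic leukaemia.

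The mature sequences are shown because the seed defines the family and because a few bases outside it separate its most alike members. They were taken from RefSeq (GRCh38.p14), where all 7 members were found, and capitals mark the seed.

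miR-16-5p: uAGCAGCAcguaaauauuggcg

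miR-195-5p: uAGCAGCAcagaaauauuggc

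miR-15a-5p: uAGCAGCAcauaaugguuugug

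miR-15b-5p: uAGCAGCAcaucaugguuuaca

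miR-497-5p: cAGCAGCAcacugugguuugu

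miR-424-5p: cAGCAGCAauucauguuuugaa

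miR-503-5p: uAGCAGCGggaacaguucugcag

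The first 6 shared the seed AGCAGCA, and miR-503-5p differed from them at its last base (A8G in miR-16-5p against miR-503-5p, counted from 1 at the 5′ end). One further name of the RefSeq table, miR-6838-5p, had the seed AGCAGCA, with 6 counts in HCT116, 2 in HCT116-R and 0 in both RKO lines. Beyond the seed the members diverged. miR-16-5p and miR-195-5p matched at 19 of 21 bases and differed by G10A and U11G, whereas miR-16-5p and miR-497-5p matched at 11 of 21. miR-15a-5p and miR-15b-5p matched at 18 of 22.

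The members lie in 4 genomic clusters (hg38 coordinates, GENCODE annotation). MIR15A (chr13:50049119-50049201, minus strand) overlapped an exon and MIR16-1 (chr13:50048973-50049061, minus strand) an intron of DLEU2, 57 bases apart. MIR15B (chr3:160404588-160404685, plus strand) and MIR16-2 (chr3:160404745-160404825, plus strand) lay 59 bases apart in introns of SMC4, a condensin subunit gene. MIR195 (chr17:7017615-7017701, minus strand) and MIR497 (chr17:7017911-7018022, minus strand) overlapped exons of MIR497HG with 209 bases between them. MIR424 (chrX:134546614-134546711, minus strand) overlapped an exon and MIR503 (chrX:134546328-134546398, minus strand) an intron of MIR503HG, 215 bases apart, with MIR542 4890 bases beyond MIR503 and the miR-450 hairpins further on. MIR16-1 and MIR16-2 give the same mature miR-16-5p, so its counts cannot be split between chromosomes 13 and 3.

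miR-16-5p carried most of the family in every line. It reached 16038 CPM in HCT116 (109428 counts) against 9283 CPM in HCT116-R (63293 counts), and 23660 CPM in RKO (168940 counts) against 18072 CPM in RKO-R (124934 counts). It ranked 18th, 27th, 8th and 14th among all miRNAs of these libraries. This was 88.2% of the family's counts in HCT116 against 86.8% in HCT116-R, and 87.7% in RKO against 84.0% in RKO-R. The 7 members together took 1.82% of the HCT116 library, 1.07% of HCT116-R, 2.70% of RKO and 2.15% of RKO-R, so both RKO lines lay above both HCT116 lines and each radioresistant line below its parent. Levels of different miRNAs also carry the ligation and amplification efficiency of each sequence, which was not measured.

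miR-15a-5p and miR-15b-5p came next and were close to each other. miR-15a-5p stood at 1058 CPM in HCT116 against 589 in HCT116-R, and 1624 in RKO against 1567 in RKO-R. miR-15b-5p stood at 878 CPM in HCT116 against 663 in HCT116-R, and 1705 in RKO against 1880 in RKO-R. Their order changed between libraries: the ratio of miR-15a-5p to miR-15b-5p counts was 1.21 in HCT116 and 0.888 in HCT116-R, with 0.952 in RKO against 0.834 in RKO-R. In each library their counting intervals did not overlap.

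The other 4 members, from chromosomes 17 and X, were minor species. miR-424-5p had 128 CPM in HCT116 and 126 in HCT116-R (875 and 859 counts), no count in RKO and 4 counts in RKO-R (0.579 CPM). miR-497-5p had 56.6 CPM in HCT116 against 20.7 in HCT116-R, and 1.26 in RKO against 1.59 in RKO-R (386, 141, 9 and 11 counts). Both were therefore well counted only in the HCT116 background.

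miR-195-5p had 66 counts in HCT116 (9.67 CPM) against 40 in HCT116-R (5.87 CPM), and 6 in RKO (0.840 CPM) against 0 in RKO-R. miR-503-5p had 30 counts in HCT116 (4.40 CPM), 25 in HCT116-R (3.67 CPM) and 0 in both RKO lines. The level order in both HCT116 lines ran from miR-16-5p over the miR-15 pair to miR-424-5p, miR-497-5p, miR-195-5p and miR-503-5p. In HCT116-R the intervals of miR-195-5p (4.31 to 7.99 CPM) and miR-503-5p (2.48 to 5.41 CPM) overlapped, as did those of miR-497-5p (0.663 to 2.40 CPM) and miR-195-5p (0.385 to 1.83 CPM) in RKO. In RKO-R those of miR-497-5p (0.889 to 2.85 CPM) and miR-424-5p (0.225 to 1.49 CPM) overlapped too. miR-16-5p, miR-15a-5p and miR-15b-5p together made up 98.9% of the family in HCT116 and 98.5% in HCT116-R.

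**Figure D1:**
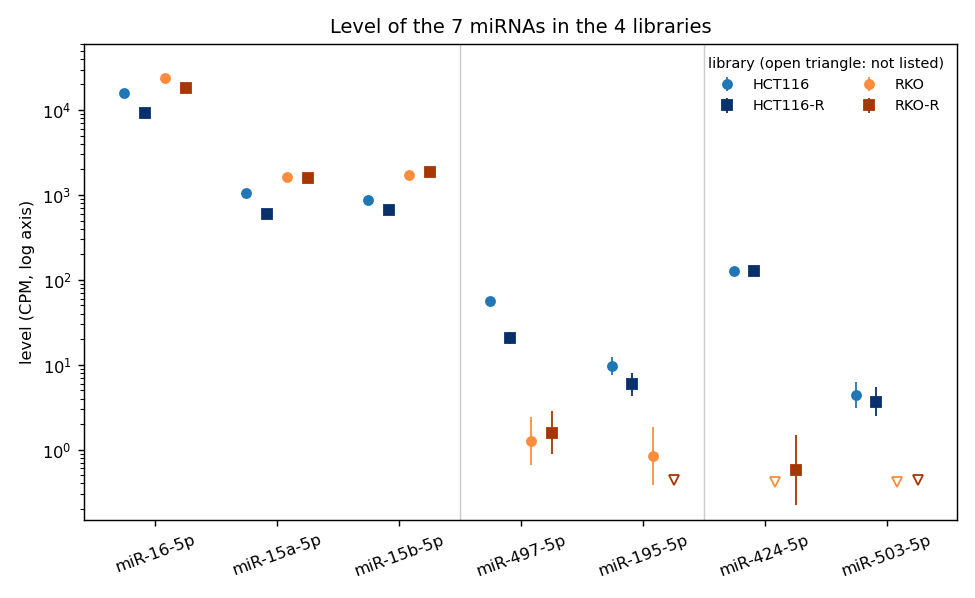
Level of each member in each library, in CPM on a log axis, grouped by genomic cluster (miR-16-5p, miR-15a-5p and miR-15b-5p at left, then miR-497-5p and miR-195-5p, then miR-424-5p and miR-503-5p). Bars are 95% Wilson intervals of counting error, and open triangles mark a miRNA not listed, drawn at the level of 3 counts; both RKO lines lie above both HCT116 lines for the first 3 and below them for the last 4.

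The members from chromosomes 17 and X differed most between the HCT116 and the RKO lines. miR-424-5p, miR-503-5p, miR-497-5p and miR-195-5p were higher in HCT116 and HCT116-R than in either RKO line, and miR-15b-5p was higher in both RKO lines. In all, 5 of the 7 members were called by edgeR's quasi-likelihood test between the lines at an adjusted p under 0.05, among 32.1% of the 598 miRNAs tested. Of these, 4 were higher in the HCT116 lines, against 23.7% of all miRNAs tested, and 1 was higher in the RKO lines, against 8.36%. The parental and the radioresistant library of a line stood as its 2 samples in this test, so the spread it used includes any effect of radioresistance. The median log2 fold change of the members (HCT116 lines over RKO lines) was 4.08, and 3.24 with miR-503-5p set at its floor of 3 counts per library, beside 0.18 for all miRNAs tested. miR-424-5p, miR-503-5p and miR-195-5p passed the filter on low counts through the HCT116 libraries alone, so a test could only find them higher there. miR-497-5p, with 9 counts in RKO and 11 in RKO-R, also needed the HCT116 libraries to pass. The count of 4 and the members' median are therefore given as values. The CPM of the HCT116 and the RKO lines did not overlap for any of the 7 members, as for 66.2% of the miRNAs tested.

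On the X chromosome, HCT116 held at least 305-fold more miR-424-5p than RKO, and HCT116-R held 218-fold more than RKO-R (84.7 to 801). The edgeR adjusted p between the lines was 0.00418. Leaving out any 1 of the 4 libraries kept miR-424-5p higher in the HCT116 lines, with log2 fold changes from 7.49 (without RKO) to 12.8 (without RKO-R). The filter on low counts set this direction, so these are given as values. miR-503-5p was at least 10.5-fold higher in HCT116 than in RKO and at least 8.45-fold higher in HCT116-R than in RKO-R (edgeR adjusted p = 0.00684), and its call was lost without the RKO library (adjusted p = 0.0577).

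On chromosome 17, miR-497-5p was 44.9-fold higher in HCT116 than in RKO (23.4 to 98.9) and 13.0-fold higher in HCT116-R than in RKO-R (7.05 to 26.6). The edgeR log2 fold change between the lines was 4.64 (SE 0.73, adjusted p = 0.00684). For its neighbour miR-195-5p, HCT116 was 11.5-fold above RKO (5.02 to 32.5) and HCT116-R at least 13.5-fold above RKO-R, with an edgeR adjusted p of 0.0271. Both calls were lost without RKO (adjusted p = 0.101 for miR-497-5p and 0.0577 for miR-195-5p) and without RKO-R (0.0580 and 0.0698), each time with the HCT116 lines higher.

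The members from chromosomes 13 and 3 lay the other way. miR-15b-5p was 1.94-fold higher in RKO than in HCT116 (1.88 to 2.003) and 2.84-fold higher in RKO-R than in HCT116-R (2.74 to 2.94). Its log2 fold change, HCT116 lines over RKO lines, was -1.33 (SE 0.37, edgeR adjusted p = 0.0385). That call was lost on leaving out any of the 4 libraries, at adjusted p of 0.0552 without HCT116, 0.198 without HCT116-R, 0.101 without RKO and 0.109 without RKO-R. miR-15a-5p (log2 fold change -1.05, SE 0.42, edgeR adjusted p = 0.111) and miR-16-5p (-0.81, SE 0.41, edgeR adjusted p = 0.193) had lower levels in the HCT116 lines but were not called.

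The X-chromosome neighbours of miR-424 and miR-503 were counted almost only in the HCT116 lines. Of the 7 other mature miRNAs fixed for this cluster (miR-542, miR-450a and miR-450b arms), 6 were listed in any library. miR-542-5p had 100 counts in HCT116 against 189 in HCT116-R, and 0 in RKO against 1 in RKO-R, and miR-450a-5p had 44, 69, 0 and 3. Both were called higher in the HCT116 lines by edgeR (adjusted p = 0.00418 and 0.0133). They were the 2 of the 7 that passed the filter on low counts, and they passed it through the HCT116 libraries alone, so the direction of both calls was set by the filter and they are given as values.

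Summed over both arms of miR-424 and miR-503 and these 7, the cluster gave 1440 counts in HCT116 (211 CPM) against 1512 in HCT116-R (222 CPM), and 0 in RKO against 11 in RKO-R (1.59 CPM). HCT116 thus lay at least 502-fold above RKO, and HCT116-R 139-fold above RKO-R (77.7 to 280). The level in RKO-R was 0.718% of that in HCT116-R, and 5 of the 11 cluster names were listed there against 0 in RKO. Where the 11 counts of RKO-R came from was not tested.

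**Figure D2:**
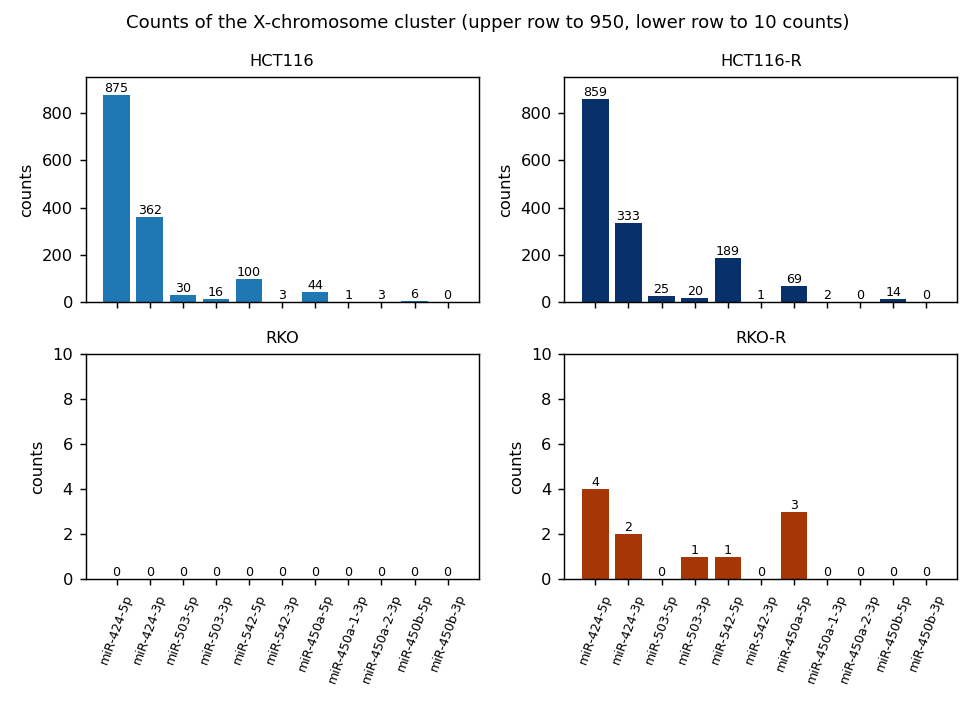
Counts of the 11 mature miRNAs of the X-chromosome cluster in each library, with the count printed above each bar and a taller count axis for the HCT116 lines than for the RKO lines, each starting at 0. miR-424-5p leads in both HCT116 lines with 875 and 859 counts, no bar is drawn for RKO, and RKO-R has at most 4 counts of any name.

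In HCT116-R, miR-497-5p fell and the other members were not called. Its 386 counts in HCT116 stood against 141 in HCT116-R, and the log2 fold change came to -1.47 (SE 0.43, adjusted p = 0.0233, edgeR's exact test). This test assumed a biological coefficient of variation (BCV) of 0.2, the relative spread expected between cultures, since a single library per line leaves none to estimate. It called 1 of the 7 members, against 4.01% of the 1322 miRNAs tested in the HCT116 pair. The call was lost at a BCV of 0.4 and at the 0.480 estimated from the 4 libraries with cell line and radioresistance as factors (adjusted p of 1 in each).

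All 7 members had a negative log2 fold change in HCT116-R, as had 637 of the 1322 miRNAs tested. Their median was -0.74 beside 0.07 over all miRNAs tested. miR-15a-5p stood at -0.87 (SE 0.41, p = 0.0361, adjusted p = 0.379, edgeR's exact test) and miR-16-5p at -0.81 (SE 0.41, p = 0.0495, adjusted p = 0.440, edgeR's exact test). In CPM the level of miR-15a-5p in HCT116-R was 0.556 of that in HCT116 (0.535 to 0.578) and that of miR-16-5p 0.579 (0.573 to 0.584). At a BCV of 0.1 both would pass, at edgeR adjusted p of 0.000619 and 0.00145. Of 68 abundant miRNAs (a minimum of 10000 counts in some library), 6 had a lower log2 fold change in HCT116-R than miR-16-5p, and their median was -0.10.

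The remaining values in the HCT116 pair were smaller. The log2 fold change was -0.74 for miR-195-5p (SE 0.50), -0.43 for miR-15b-5p (SE 0.41), -0.28 for miR-503-5p (SE 0.56) and -0.05 for miR-424-5p (SE 0.41). miR-424-5p and miR-503-5p thus lay nearest to 0. Their neighbour miR-542-5p had a positive value of 0.90 (SE 0.45, p = 0.0487, adjusted p = 0.435, edgeR's exact test).

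In RKO-R, 0 of the 6 members tested were called by edgeR's exact test at the same assumed BCV, against 5.54% of the 1155 miRNAs tested, and miR-503-5p had no count to test. At an unadjusted p under 0.05 there was 1, miR-195-5p, whose 6 counts in RKO stood against 0 in RKO-R (p = 0.0410, adjusted p = 0.336, edgeR's exact test). This is a level of at most 0.516 of that in RKO. The log2 fold change was 0.38 for miR-15b-5p (SE 0.41), 0.19 for miR-15a-5p (SE 0.41), -0.15 for miR-16-5p (SE 0.41) and 0.57 for miR-497-5p (SE 0.77). The members' median was 0.28, also with the zero counts at the floor, beside 0.02 for all miRNAs tested. The same 68 abundant miRNAs had a median of 0.29 in RKO-R, and 19 of them had a lower value than miR-16-5p.

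Scaling mattered in the RKO pair. TMM normalisation, which sets the bulk of miRNAs equal, shifted the scale of log2 fold changes there by 0.24 over library totals, against -0.02 in the HCT116 pair. The fitted values of miR-195-5p and miR-424-5p, each with a 0 in the RKO pair, moved by less. With library totals the value of miR-15a-5p in RKO-R turned to -0.05. In CPM, miR-16-5p in RKO-R was 0.764 of its level in RKO (0.758 to 0.769) and miR-15b-5p was 1.10 of it (1.08 to 1.13). miR-16-5p lay below its parent under both scalings.

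**Figure D3:**
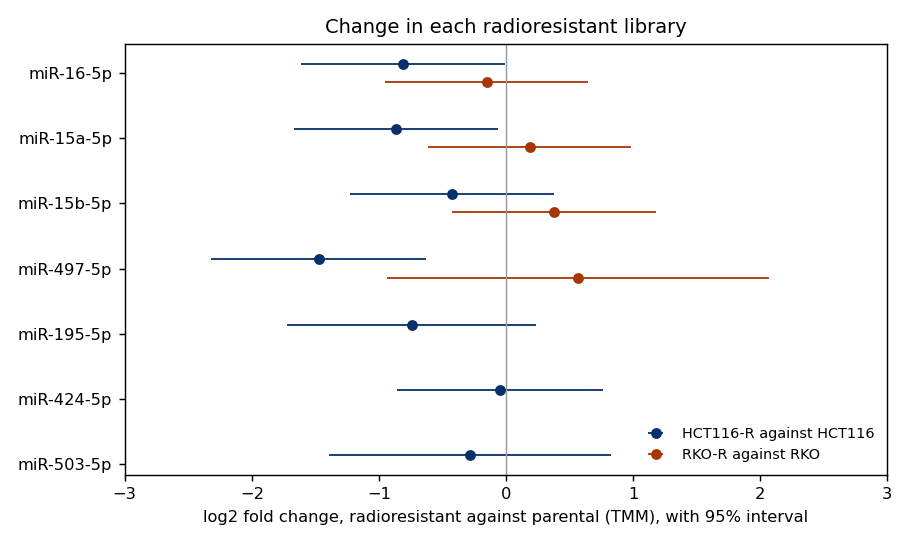
Log2 fold change of each member in the radioresistant over the parental library, after TMM normalisation, for the HCT116 pair (dark blue) and the RKO pair (brown), with bars of the 95% interval drawn from the SE at the assumed BCV of 0.2. miR-497-5p at -1.47 in the HCT116 pair lies farthest from 0 among the values drawn, and members with a 0 count in the RKO pair have no brown point.

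Over both lines together, 0 of the 7 members were called between radioresistant and parental libraries by the quasi-likelihood test of edgeR that held cell line as a factor, among 0.669% of 598 miRNAs. None passed at an unadjusted p under 0.05 and none was called by DESeq2. With 1 residual degree of freedom this comparison has little reach. The log2 fold change was -0.51 for miR-16-5p (SE 0.44), -0.37 for miR-15a-5p (SE 0.50) and -0.05 for miR-15b-5p (SE 0.47). The last value came to 0.00057 with DESeq2's size factors.

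Whether the HCT116 and the RKO pair differed in their change was tested directly, by edgeR's likelihood ratio test of the interaction at the assumed BCV of 0.2. None of the 7 members was called, among 4.75% of all 1474 miRNAs. At an unadjusted p under 0.05 there were 3, miR-424-5p (adjusted p = 0.174), miR-497-5p (adjusted p = 0.210) and miR-195-5p (adjusted p = 0.309). For miR-497-5p the log2 difference, HCT116 pair minus RKO pair, was -2.01, and it rested on 9 and 11 counts in the RKO lines. For miR-15a-5p the difference was -1.02 (adjusted p = 0.425) and for miR-16-5p -0.63 (adjusted p = 0.830). The fall of miR-497-5p in HCT116-R is therefore not shown to be particular to the HCT116 pair.

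The passenger strands, the arms of the same hairpins that are mostly discarded were counted for some of the loci. Of the 8 looked up, 6 were listed in any library, and miR-16-1-3p and miR-497-3p in none. The annotation behind the counts was not given in the sources used here, so whether these 2 names could have been counted at all is unknown. miR-195-3p had 5 counts, all in HCT116. The mature sequences of the 2 that stood out are shown with their seeds in capitals, since neither carries the family seed.

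miR-424-3p: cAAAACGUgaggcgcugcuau

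miR-15b-3p: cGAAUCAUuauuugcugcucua

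miR-424-3p had 362 counts in HCT116 against 333 in HCT116-R, and 0 in RKO against 2 in RKO-R, and was called higher in the HCT116 lines (edgeR adjusted p = 0.00291). miR-503-3p had 16, 20, 0 and 1 counts and was called as well (edgeR adjusted p = 0.0118). The call of miR-424-3p was lost without RKO (adjusted p = 0.0503), and that of miR-503-3p without HCT116-R, RKO or RKO-R (adjusted p = 0.0746, 0.101 and 0.0520). These were 2 of the 5 passenger strands tested between the lines, against 32.1% of all miRNAs tested, and both passed the filter on low counts through the HCT116 libraries alone. In the HCT116 pair 0 of 6 were called by edgeR's exact test, against 4.01%, and in the RKO pair 0 of 5, against 5.54%, with 0 at an unadjusted p under 0.05 in each.

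The share of the 3p arm differed widely between hairpins. MIR424 and MIR503 gave the most passenger strand: 29.3% of the MIR424 counts in HCT116 (26.8 to 31.9) and 27.9% in HCT116-R (25.5 to 30.6) were miR-424-3p. For MIR503 the 3p arm took 34.8% in HCT116 (22.7 to 49.2) and 44.4% in HCT116-R (30.9 to 58.8). At MIR15A the 3p share lay between 0.235% and 0.423%. For miR-16, set against the 5p arm from both loci, miR-16-2-3p lay between 0.0426% and 0.0821%.

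The arms of MIR15B had opposite signs in HCT116-R. miR-15b-3p had 297 counts in HCT116 against 478 in HCT116-R, and 720 in RKO against 527 in RKO-R. Its share of the hairpin's counts was 4.72% in HCT116 (4.23 to 5.27) and 9.57% in HCT116-R (8.78 to 10.4), while in RKO it was 5.58% (5.20 to 5.99) and in RKO-R 3.90% (3.58 to 4.24). The intervals within each pair did not overlap, with the higher share in HCT116-R and in RKO. Neither arm was called in a pair: in HCT116-R the log2 fold change was 0.67 for miR-15b-3p (SE 0.42, adjusted p = 0.679, edgeR's exact test) and -0.43 for miR-15b-5p (adjusted p = 0.945). In RKO-R it was -0.17 for miR-15b-3p (SE 0.42) and 0.38 for miR-15b-5p (SE 0.41).

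**Figure D4:**
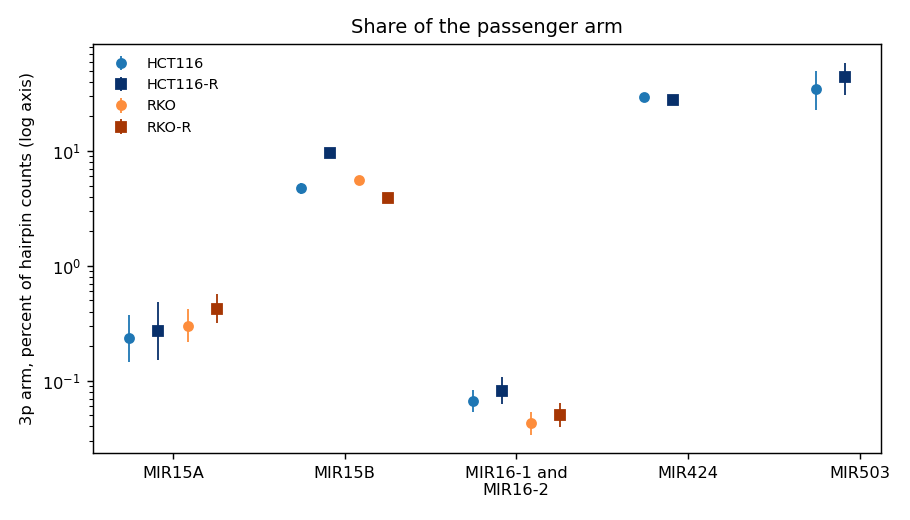
Share of the 3p arm in the 5p and 3p counts of each hairpin, in percent on a log axis, for every library with at least 10 counts on the hairpin. Bars are 95% Wilson intervals of counting error; MIR424 and MIR503 lie highest at 27.9% to 44.4%, and MIR15B in HCT116-R at 9.57% lies above the other libraries.

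The near-identical pair miR-16-5p and miR-195-5p could share reads if mismatches were allowed in counting, and the mismatch setting was not given in the sources used here. Per 100000 counts of miR-16-5p there were 60.3 of miR-195-5p in HCT116 against 63.2 in HCT116-R, and 3.55 in RKO against 0 in RKO-R. Whether reads were shared between the 2 was not tested. Within HCT116 the ratio of miR-497-5p to miR-195-5p was 5.85, and within HCT116-R it was 3.53.

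For each member, the miRNAs with the most alike profile over the 4 libraries were found by Euclidean distance of log2(CPM + 1) values centred on their mean, among 341 candidates with at least 100 counts in a library. This is a description over 4 libraries. Nearest to miR-16-5p was miR-361-5p (distance 0.031), with miR-330-3p and miR-93-5p behind it. The counts of miR-361-5p were 1154 in HCT116 against 669 in HCT116-R, and 1759 in RKO against 1338 in RKO-R. Nearest to miR-15a-5p were miR-30b-5p (0.179), miR-126-5p and miR-361-5p, and nearest to miR-15b-5p were miR-10b-5p (0.153), miR-126-3p and let-7d-5p.

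The members low in the RKO lines had other neighbours. Those of miR-424-5p were miR-1247-5p (distance 0.417), miR-181a-2-3p and miR-218-5p, those of miR-497-5p were miR-549a-5p (0.394), miR-486-3p and miR-184, and those of miR-195-5p were miR-425-3p (0.333), miR-125b-1-3p and miR-125b-5p. For miR-503-5p they were miR-100-3p (0.215), miR-5001-3p and miR-100-5p. With few or no counts in the RKO lines, the distances of all these members depend on the added 1 CPM. miR-195-5p and miR-503-5p had few counts in the HCT116 lines as well.

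Other miRNAs known for repressing G1 cyclins or their kinases were read as a list of 13. Between the HCT116 and the RKO lines, 0 of the 10 tested were called by edgeR, against 32.1% of all miRNAs tested. At an unadjusted p under 0.05 there were 4. DESeq2, read over all 13 with 2 lacking an adjusted p, called 1, miR-129-5p, beside 210 miRNAs called in all. The RKO lines held at most 5 counts of miR-129-5p, so it needed the HCT116 libraries to pass the filter on low counts. Its direction between the lines is therefore given as a value. In the HCT116 pair 1 of 13 was called, against 4.01% of all miRNAs tested: miR-129-5p, a repressor of CDK6, fell to 12 counts in HCT116-R from 70 in its parent (log2 fold change -2.55, SE 0.61, adjusted p = 0.000779, edgeR's exact test). In the RKO pair 2 of 13 were called, against 5.54%. miR-107 fell from 27 counts to 3, to 0.115 of its level in RKO (0.0223 to 0.373, edgeR adjusted p = 0.0373). miR-34c-5p, of the p53-induced miR-34 family, rose from 0 counts to 10, at least 3.44-fold (edgeR adjusted p = 0.0465). The abundant miR-34a-5p of the same family lay the other way there, at a log2 fold change of -0.19 (SE 0.41, 78386 counts in RKO and 56563 in RKO-R). The calls in both pairs rest on the assumed BCV of 0.2. The median log2 fold change of the list was -0.18 for the HCT116 and 0.27 for the RKO pair. Its abundant members let-7a-5p, let-7b-5p, miR-26a-5p and miR-34a-5p, each with at least 56563 counts in every library, were called in neither pair.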

How the data were processed

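Total RNA of each line was size-selected to short RNAs, ligated to adapters carrying unique molecular identifiers and sequenced on a BGISEQ-500. The authors deposited raw read counts per mature miRNA, 1 table per line. Bowtie2 and hg38 are named in the submitters' processing notes without version or role. The counting program, miRNA annotation, strand use, mismatches allowed and whether identifiers were collapsed were not given in the sources used here. Miscounting between alike sequences or PCR copies would pass into the counts.

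Counts were summed per library for CPM, with 95% Wilson intervals for shares and levels, exact conditional binomial intervals for ratios and a floor of 3 counts. Pairs of libraries were tested in edgeR 4.0.16 (R 4.3.3) with the exact test, TMM and an assumed BCV of 0.2, over every miRNA that had 1 count or more there. HCT116 lines were tested against RKO lines, and radioresistant against parental libraries with cell line as a factor, by edgeR's quasi-likelihood test after filterByExpr. The difference between pairs was tested with edgeR's likelihood ratio test. The SE printed for a pair was computed from its counts and the assumed BCV, apart from the exact test. For the quasi-likelihood tests the SE was the absolute log2 fold change over the square root of the F statistic, so it restates the test. All tests were two-sided, with Benjamini-Hochberg adjustment across the whole set tested and calls under 0.05. DESeq2 1.42.0, other BCVs, scalings and filters and leaving out each library were the alternatives. The scripts were tested on simulated data. Groups came from the sample titles.

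The members and lists were chosen with earlier results of these data known. Named miRNAs were the members, their passenger strands, the rest of the X cluster, names with the same seed, members of the G1 list called in a pair (its most abundant members were named after their values were seen), and the 3 nearest profiles of each member. The epithelial and blood cell miRNAs were also looked up after the data were seen. Sequences came from RefSeq (GRCh38.p14) and gene positions from GENCODE on the same assembly as hg38.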

Additional observations from a re-analysis of the deposited data

How the results depend on the processing

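The pair tests rest on the assumed spread. In the HCT116 pair, 1 member and 53 miRNAs were called at a BCV of 0.2, 3 and 154 at 0.1, 0 and 24 at 0.4, and 0 and 14 at the estimated BCV, with 3 members at an unadjusted p under 0.05. In the RKO pair, 0 members and 64 miRNAs were called, 148 miRNAs at a BCV of 0.1, 9 at 0.4 and 5 at the estimated BCV, with 1 member at an unadjusted p and 2 at a log2 fold change of at least 1 without a test. These 2 were miR-195-5p (6 counts in RKO, 0 in RKO-R) and miR-424-5p (0 in RKO, 4 in RKO-R). They lay in opposite directions, and the size of each fitted value rests on a 0 count. Between the HCT116 and the RKO lines, leaving out 1 library moved the members called from 5 to between 1 and 4 and all calls from 192 to between 11 and 172. The lowest came without RKO, and without RKO-R there were 2 and 97. A lone library is there assumed to vary like the other group. Over both lines, 4 miRNAs were called, 2 with library totals and 11 without the filter. With TMM library sizes the summed level of the 7 members was 24751 CPM for RKO, 23255 for RKO-R and 10781 for HCT116-R.

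With library totals the log2 fold change turned to -0.051 for miR-15a-5p and -0.15 for miR-16-2-3p in the RKO pair and to -0.050 for miR-15a-3p over both lines. miR-15b-5p over both lines came to 0.00057 with DESeq2's size factors. miR-16-2-3p between the lines ranged from -0.47 (without HCT116) to 0.084 (without HCT116-R) on leaving out 1 library. The call of miR-15b-5p between the lines was also lost without the filter (adjusted p = 0.101) and with radioresistance as a factor (0.0911, edgeR). Of 369 single values under the alternatives, 344 kept direction and call, 17 lost the call, 3 gained it and 5 changed sign. The causes were not tested. In the pairs, the other BCVs and the likelihood ratio test left the log2 fold change as it was, so its sign could not change there. The values also cover the passenger strands, and most were of miRNAs not called in the main tests. The 344 is therefore not a measure of how firm the results are. The labels carry no replicate numbers; the comparison over both lines pairs each radioresistant library with its parent through the cell line factor.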
